A study of Mus musculus with 18 samples.

Results

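The 10 genes described here make, load, take up the precursor of, break down or sense acetylcholine. They were chosen by name from the 26327 gene symbols of a count table and followed across cells sorted from the mouse trachea: Chat, Slc18a3, Slc5a7, Slc44a1, Slc44a2, Slc44a4, Ache, Bche, Chrm1 and Chrm3. Of the 10, 7 had enough counts to be tested, and Slc5a7, Ache and Bche did not. RNA sequencing had been done on 18 libraries from naive mice that carried the transgene Tg(RP23-268L19-EGFP)2Mik on a B6.Cg background, a bacterial artificial chromosome that places eGFP under control of Chat. Brush cells (7 libraries) were gated as CD45-, EpCAM+ and eGFP+, the cells called EpCAM+ (7 libraries) as CD45- and EpCAM+ without regard to eGFP, and CD45+ cells (4 libraries) by CD45. The transgene was present in all 3 groups, eGFP+ cells were not left out of the EpCAM+ gate as it is worded, and dead cells were excluded with propidium iodide after digestion with dispase and papain. Whether libraries came from separate mice is not stated, so the p-values reflect only how these libraries vary among themselves, in part perhaps for technical reasons. Neither the ages of the mice nor the number of cells sorted per library is given in the labels.

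Acetylcholine is made in the cytosol from choline and acetyl-CoA by choline acetyltransferase, the product of Chat, and is loaded into vesicles by the vesicular acetylcholine transporter, the product of Slc18a3. In neurons choline is recovered by the high-affinity transporter encoded by Slc5a7 after acetylcholinesterase (Ache) has split the transmitter, while the choline transporter-like proteins of the Slc44 family serve many tissues and also supply phospholipid synthesis. Brush cells, or tuft cells, are chemosensory cells of the airway lining that express Chat, and acetylcholine released in the airway acts on nicotinic receptors and on muscarinic receptors such as those encoded by Chrm1 and Chrm3.

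Chat and Slc18a3 share 1 locus. In the GENCODE vM21 annotation of GRCm38 (mm10), Chat lies at chr14:32408203-32465989 on the minus strand and Slc18a3, at chr14:32462438-32464850 on the same strand, lies inside its bounds. The start sites of both genes in RefSeq are 1059 bases apart. The 250 bases before each start site are shown for this pair and for Slc44a4, the other member that separated brush cells from both other groups, as RefSeq gives them for GRCm38.p6. Each is read 5′ to 3′ on the strand of its gene, at chr14:32465910-32466159 (minus) for Chat, chr14:32464851-32465100 (minus) for Slc18a3 and chr17:34914216-34914465 (plus) for Slc44a4, and capitals mark matches to the motifs named after them.
Chat: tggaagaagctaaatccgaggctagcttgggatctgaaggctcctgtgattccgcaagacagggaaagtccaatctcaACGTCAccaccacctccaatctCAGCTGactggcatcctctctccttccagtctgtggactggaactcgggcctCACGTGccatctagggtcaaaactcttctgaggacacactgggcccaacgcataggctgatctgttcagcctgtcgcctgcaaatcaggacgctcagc
Slc18a3: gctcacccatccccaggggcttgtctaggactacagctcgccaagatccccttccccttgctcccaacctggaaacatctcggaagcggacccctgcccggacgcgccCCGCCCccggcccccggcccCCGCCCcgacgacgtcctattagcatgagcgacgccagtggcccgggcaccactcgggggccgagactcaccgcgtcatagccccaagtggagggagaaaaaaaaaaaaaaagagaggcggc
Slc44a4: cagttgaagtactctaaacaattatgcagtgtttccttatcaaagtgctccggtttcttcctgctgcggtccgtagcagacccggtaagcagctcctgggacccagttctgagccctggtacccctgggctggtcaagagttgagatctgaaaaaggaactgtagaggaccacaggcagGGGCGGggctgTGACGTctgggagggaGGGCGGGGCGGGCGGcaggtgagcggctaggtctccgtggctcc
Capitals mark TGACGT, the core of the cyclic AMP response element, in Chat and Slc44a4, GGGCGG, the GC box, 2 times in Slc18a3 and 4 times in Slc44a4, and the E boxes CACGTG and CAGCTG in Chat. Both strands were searched, so a match may be printed as its reverse complement, and adjoining GC boxes in Slc44a4 overlap. Among 32851 promoters of the same length, 6.47% held TGACGT, 32.7% held GGGCGG, 6.02% held CACGTG and 13.0% held CAGCTG. None of the 3 stretches held ATGCAAAT (the octamer bound by POU factors, in 1.6% of promoters), the full element TGACGTCA, which contains TGACGT (1.55%), or TATAAA (12.4%). A match describes these letters only. Of the 10 members 9 had a RefSeq promoter entry, and Chrm1 had none.

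Library totals ran from 838328 to 6031711 counts in brush cells, 2442601 to 6087184 in EpCAM+ cells and 371652 to 7438791 in CD45+ cells. The sorts carried the markers of their labels. The summed level of 8 brush cell genes, among them Trpm5 and Pou2f3, was 9360 to 10900 CPM (counts scaled to the TMM-adjusted library size) in brush libraries, 6.5 to 31.7 CPM in EpCAM+ libraries and 0 to 6.35 CPM in CD45+ libraries. Summed over 6 leukocyte genes, CD45+ libraries held 5930 to 6500 CPM and brush libraries 13.7 to 38.6 CPM, and 6 basal cell genes summed to 3760 to 6220 CPM in EpCAM+ libraries. RNA of other epithelial cells was also counted outside the EpCAM+ sort. Basal cell genes summed to 58.6 to 212 CPM in brush libraries. The 6 club and goblet cell genes summed to 354 to 3300 CPM in brush and 227 to 1440 CPM in CD45+ libraries, beside 32400 to 145000 CPM in EpCAM+ libraries. Brush replicate 4 and CD45+ replicate 1 were the shallowest libraries, and EpCAM+ replicate 5 had stood apart from its group in an earlier look at these data. Without these 3 libraries the numbers of members called were the same in every comparison.

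Across the members, brush cells were set apart from EpCAM+ cells by more Chat, Slc18a3, Slc44a4 and Slc44a2 RNA and less Chrm3 RNA. Against EpCAM+ cells 4 of the 7 tested members were higher and 1 lower in brush cells, where 18.3% of all 13418 genes tested were called higher and 22% lower (40.3% in either direction) at an adjusted p below 0.05 (edgeR's quasi-likelihood test with Benjamini-Hochberg adjustment). Against CD45+ cells 2 members, Chat and Slc44a4, were higher (23.4% of all genes) and 0 were lower (22.4% of all genes, 45.8% in either direction). That count of 0 was also 0 at an unadjusted p below 0.05 and with DESeq2 and limma voom. EpCAM+ cells had more Slc44a4 and Chrm3 RNA than CD45+ cells (22.5% of all genes were higher) and less Chat and Slc18a3 RNA (18.1% lower, 40.5% in either direction). The median log2 fold change over the 7 tested members was 0.94, 0.81 and -0.15 in these comparisons, beside -0.06, 0.05 and 0.08 over all genes. Chat drives the sort reporter and Slc18a3 lies inside its locus. Their values in the brush comparisons are not independent of the gate, though they enter these counts and medians. Slc18a3 and Chrm3 also had enough counts to be tested mainly through the group where they are high, so these counts were partly set in advance. Outside that locus, Slc44a4 and, near the threshold, Slc44a2 were higher and Chrm3 lower in brush than in EpCAM+ cells. Against CD45+ cells only Slc44a4 was called outside that locus. Each comparison shares a group of libraries with the others. In these bulk samples fewer cells of a type and less RNA per cell cannot be told apart.

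**Figure D1:**
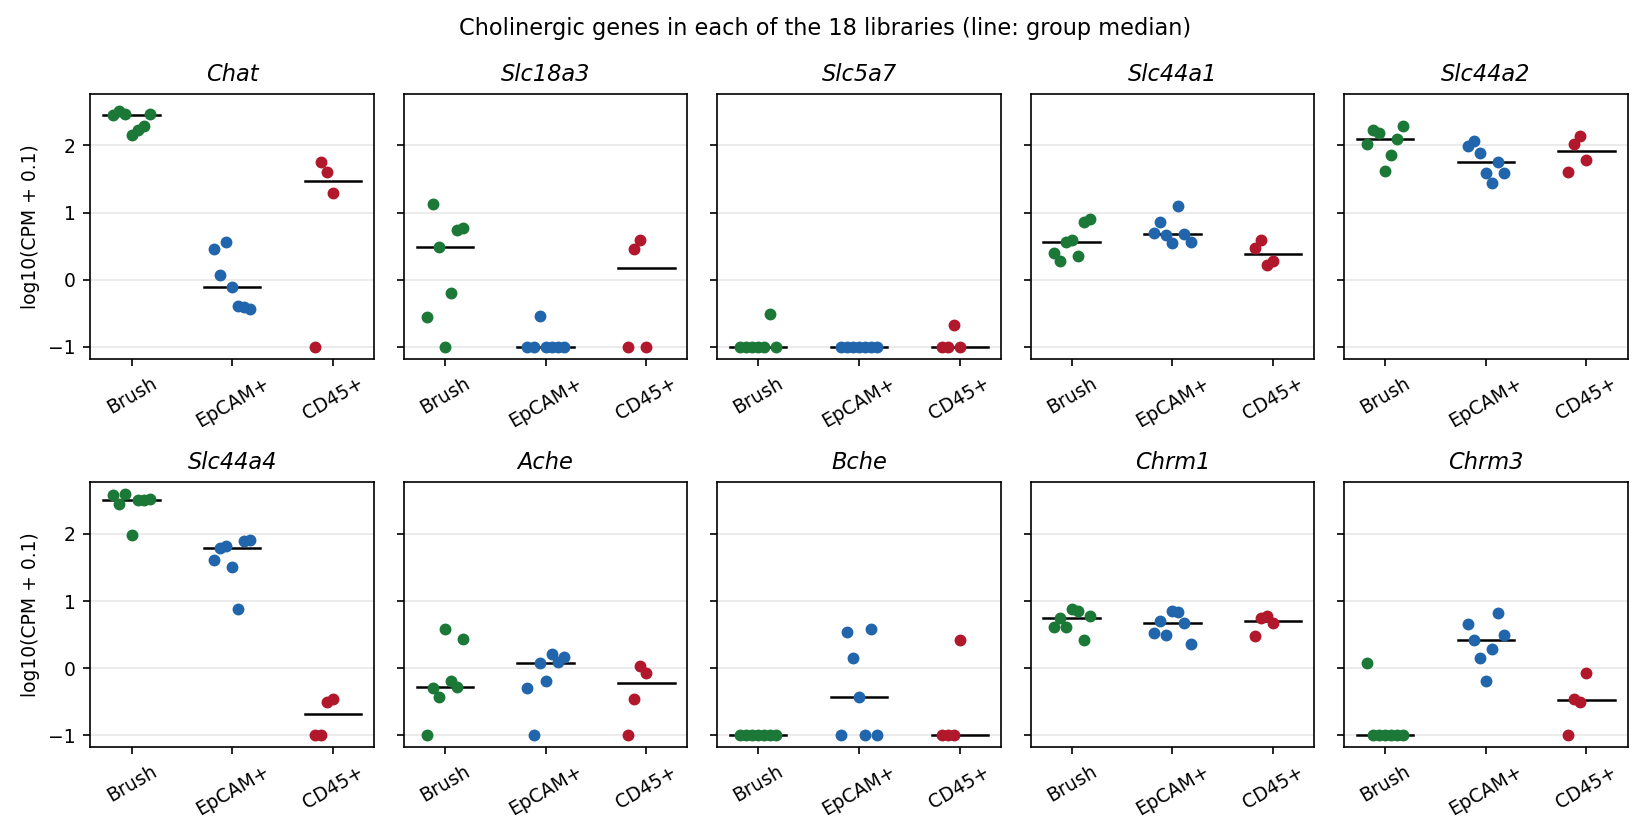
The level of each of the 10 genes as log10(CPM + 0.1), 1 point for each of the 18 libraries, with a line at the group median; -1 on the axis is 0 counts. Chat and Slc44a4 are high in every brush library, Slc18a3 is scattered between 0 and 13.2 CPM in brush cells, and Chrm3 lies at 0 in all brush libraries but replicate 1.

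Chat, which encodes the enzyme that makes acetylcholine, ranged from 143 to 326 CPM in the brush libraries with a median of 281. In EpCAM+ libraries it ranged from 0.27 to 3.53 CPM with a median of 0.674, and CD45+ replicates 1 to 4 held 0, 56.1, 39.9 and 19.6 CPM. Every brush library lay above every other library, and CD45+ libraries other than replicate 1 lay above all EpCAM+ libraries. Chat drives the reporter used in the sort, so its excess over EpCAM+ cells (log2 fold change 7.54 ± 0.64, SE) and over CD45+ cells (2.97 ± 0.62) checks the gate and is not an independent finding. Without EpCAM+ replicate 3, which held 19 of the 39 Chat counts of its group, the first of these was 8.14. The fit with the expected counts of RSEM, a program that shares reads among transcripts, gave 3.59 for the second.

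The comparison of EpCAM+ with CD45+ cells did not use the reporter, as the gates are worded. The log2 fold change of EpCAM+ minus CD45+ cells was -4.58 ± 0.61 for Chat (SE; adjusted p = 1.53e-06, edgeR's quasi-likelihood test), with 39 counts over 7 libraries against 666 over 4. The value was -5.17 without EpCAM+ replicate 3. The 0 in CD45+ replicate 1 came from the shallowest library, in which a count of 0 still allows up to 8.62 CPM, a limit that covers counting error only.

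Most of the other brush cell genes were near 0 in the CD45+ libraries that held Chat RNA. The CD45+ libraries averaged 11.9% of the brush mean of Chat but 0.0381% of the brush mean of the 8 summed brush markers, with Pou2f3 and Il25 at 0 counts. The Chat percent comes from the count table and depends on how reads were assigned. RSEM gave 286 expected Chat counts against 666 in CD45+ cells (0.429 times) and 5610 against 8009 in brush cells (0.7 times). Per library, Chat in CD45+ replicates 1 to 4 stood at 0, 23.1, 16.4 and 8.05% of the brush mean, and the markers at 0, 0.0477, 0.0408 and 0.064%. Gfi1b, a transcription factor gene also active in blood cell lineages, was the exception among the 8, at 0, 8.67, 6.86 and 10.6% of its low brush mean of 14.4 CPM, and in replicate 4 it stood above Chat. Each of the others was at most 0.228% in any CD45+ library. In EpCAM+ cells the corresponding means were 0.526% for Chat and 0.142% for the markers, with Il25 and Gfi1b at 0.

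The CD45+ libraries differed in their leukocyte makeup. All 6 B cell markers, all 6 T cell markers and all 6 macrophage markers on the lists had counts in this group. Summed B cell markers in replicates 1 to 4 were 1440, 1410, 1960 and 454 CPM, T cell markers 856, 43.4, 629 and 78.5 CPM, and macrophage markers 3480, 4710, 1950 and 8860 CPM. Among the 3 deeper libraries, Chat was lowest in replicate 4, which also had the lowest B cell and the highest macrophage marker level of the 4 in CPM. The part of these cell types in the Chat level was not tested.

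**Figure D2:**
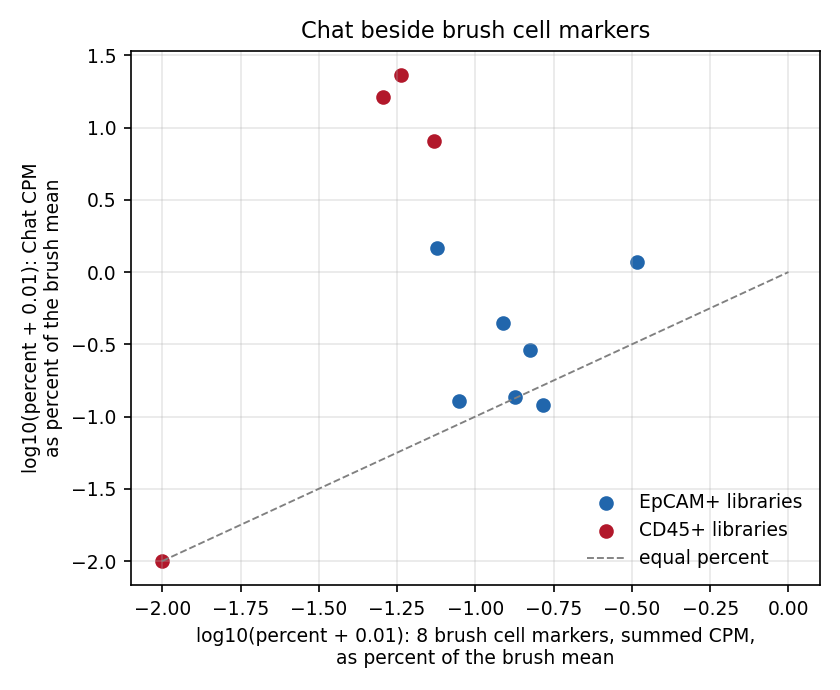
Chat against the summed level of 8 brush cell markers in each EpCAM+ and CD45+ library, each as a percent of the brush mean and plotted as log10(percent + 0.01), with a dashed line where both percents are equal. CD45+ replicates 2, 3 and 4 sit far above the line, with 8.05 to 23.1% of the brush level of Chat and at most 0.064% of the summed markers, while CD45+ replicate 1 is at 0 for both.

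Slc18a3, the vesicular acetylcholine transporter, was sparse and uneven among brush libraries. It had 151 counts in all in brush cells, and the lowest, median and highest levels were 0, 2.98 and 13.2 CPM. EpCAM+ cells had 1 count, in replicate 3, and CD45+ replicates 1 to 4 held 0, 2.74, 3.83 and 0 CPM. The brush range overlapped that of both other groups, because brush replicate 4 had no count and replicates 1 and 5 had 1 count each.

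Summed over libraries and scaled by their size, Slc18a3 was 155-fold higher in brush than in EpCAM+ cells (95% exact counting interval 27.4 to 6170), and the fitted log2 fold change was 6.15 ± 1.12 (SE, adjusted p = 9.94e-05, edgeR's quasi-likelihood test). The fit gave 7.21 without EpCAM+ replicate 3, 5.50 without brush replicate 2 and 4.15 with limma voom. With 151 counts in brush, 1 in EpCAM+ and 46 in CD45+ cells, Slc18a3 passed the filter on low counts mainly through brush cells. A call of lower against EpCAM+ cells was therefore hardly possible, and the p-values of Slc18a3 do not allow for this selection. Slc18a3 is inside the sorted locus, and reads from any Chat or Slc18a3 sequence of the transgene and from the endogenous genes cannot be told apart. Between brush and CD45+ cells it did not pass the test, with 151 against 46 counts (log2 fold change 1.07 ± 0.92, SE, with 0.47 without brush replicate 2 and 1.83 without CD45+ replicate 3).

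The CD45+ cells also had more Slc18a3 than the EpCAM+ cells, 46 counts against 1, a ratio of 80.3 (95% exact counting interval 13.7 to 3240). The fitted log2 fold change of EpCAM+ minus CD45+ was -5.08 ± 1.22 (SE, adjusted p = 0.00156, edgeR's quasi-likelihood test). It was -6.14 without EpCAM+ replicate 3, -4.26 without CD45+ replicate 3 and -3.20 with limma voom. Both CD45+ libraries with Slc18a3 counts, replicates 2 and 3, were the ones with the most Chat.

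Per length, Slc18a3 RNA was a small fraction of Chat RNA in brush cells. In TPM (a level that is scaled by transcript length) Slc18a3 stood at 0.101, 6.65, 1.74, 0, 0.568, 4.9 and 3.22% of Chat in brush replicates 1 to 7. The share thus ran from 0 in the shallowest library to 6.65% in replicate 2, and replicate 1, with 1550 Chat counts, had 1 Slc18a3 count. In CD45+ replicates 2, 3 and 4 the share was 13.3, 26.9 and 0%. These shares depend on how reads were assigned. RSEM gave 0.429 times the Chat counts of the count table in CD45+ cells and 0.7 times in brush cells. For Slc18a3 it gave 0.957 and 0.973 times, which raises the share more in CD45+ than in brush cells. A test of this ratio was not made.

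Markers of neurons were low in all groups. The summed level of 7 neuronal genes was 4.17 to 18.1 CPM in brush, 0.802 to 29.1 CPM in EpCAM+ and 0 to 6.23 CPM in CD45+ libraries. Phox2a, a factor of autonomic neurons, had 0 counts in brush and CD45+ libraries, and reached 0.27 CPM in EpCAM+ replicate 7. Slc5a7, the high-affinity choline transporter of cholinergic nerve endings, had 1 count in brush replicate 6, 1 in CD45+ replicate 3 and 0 in the EpCAM+ libraries. No fold is given for Slc5a7. Over a group, 3 counts correspond to 0.101 CPM in brush, 0.0986 CPM in EpCAM+ and 0.172 CPM in CD45+ cells, so each group's level lay under this limit.

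The neighbours of Chat were measured as well, since the transgene holds a stretch of this locus. Of 18 annotated genes within 250 kb of Chat, 9 were in the count table and 7 could be tested. Against EpCAM+ cells 3 were higher in brush cells and 1 lower, beside 18.3% and 22% of all genes. Beside Slc18a3 these were Ercc6, a DNA repair gene (107 against 71.4 CPM, log2 fold change 0.58 ± 0.21), 3425401B19Rik (24.5 against 0.321 CPM, 6.32 ± 0.59) and 1700024G13Rik (3.95 against 10.2 CPM, -1.32 ± 0.45). The others tested, Ncoa4, Timm23 and Parg, did not pass the test. Unlike Chat, 3425401B19Rik was close to 0 in CD45+ cells, where it had 1 count. With 728 counts in brush and 8 in EpCAM+ cells, 3425401B19Rik passed the filter on low counts through brush cells, where it is high. Slc18a3 did so in large part. A call of lower against EpCAM+ cells was hardly possible for either gene. The count of 3 is therefore no support beside the share of all genes.

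Slc44a4, which encodes choline transporter-like protein 4, was the member with the highest level per length in brush cells. It ranged from 94.3 to 390 CPM in the brush libraries with a median of 318. In EpCAM+ libraries it ranged from 7.4 to 80.1 CPM with a median of 60.6, and CD45+ replicates 1 to 4 held 0, 0, 0.219 and 0.254 CPM. The 3 groups did not overlap, and brush replicate 4 was the only brush library under 274 CPM. Ranges that do not overlap were found for 20.3% of all tested genes between brush and EpCAM+ cells and for 30.5% between brush and CD45+ cells.

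Slc44a4 was higher in brush than in EpCAM+ cells, with a log2 fold change of 2.53 and an SE of 0.40 (adjusted p = 2.02e-05, edgeR's quasi-likelihood test). Against CD45+ cells, which had 3 counts in all, the ratio of scaled counts was 1920 (95% exact counting interval 658 to 9330) for brush cells and 301 (103 to 1460) for EpCAM+ cells. The fitted log2 fold changes were 10.58 ± 0.86 and 8.06 ± 0.83, which limma voom put at 9.62 and 6.91 and the RSEM expected counts, with 0 in CD45+ cells, at 13.19 and 10.65. All of them passed the test. Slc44a4 lies at chr17:34914466-34930436, on another chromosome than the reporter locus.

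Slc44a2, choline transporter-like protein 2, was present in all groups. It ranged from 41.5 to 192 CPM in brush libraries with a median of 122, and from 27.5 to 116 CPM in EpCAM+ libraries with a median of 55.4. CD45+ replicates 1 to 4 held 40.2, 105, 138 and 60.4 CPM. The 3 groups overlapped widely, and the shallowest brush and CD45+ libraries were the lowest of their groups.

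The excess of Slc44a2 in brush over EpCAM+ cells was near the threshold, at 0.94 ± 0.37 on the log2 scale (SE; adjusted p = 0.0466, edgeR's quasi-likelihood test). It did not pass with DESeq2 size factors (0.90, adjusted p = 0.0503), with RSEM expected counts (0.91, adjusted p = 0.112), or when any of brush replicates 1, 2, 3, 6 and 7, EpCAM+ replicates 3 to 7 or CD45+ replicate 2 was left out (adjusted p from 0.0521 to 0.115). Neither brush and CD45+ cells (0.49 ± 0.44) nor EpCAM+ and CD45+ cells (-0.45 ± 0.43) differed beyond the test for this gene.

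Slc44a1, choline transporter-like protein 1, the widely expressed member of the family, had a low count in all groups. The lowest, median and highest levels were 1.82, 3.52 and 7.85 CPM in brush cells and 3.37, 4.61 and 12.6 CPM in EpCAM+ cells. CD45+ replicates 1 to 4 held 2.87, 3.74, 1.53 and 1.78 CPM. The groups overlapped, and no comparison passed edgeR's test, at log2 fold changes of -0.46 ± 0.44, 0.81 ± 0.57 and 1.27 ± 0.57 (SE) for brush minus EpCAM+, brush minus CD45+ and EpCAM+ minus CD45+. DESeq2 called the last of these (1.39, adjusted p = 0.0422). The RSEM tables held 4.72 to 5.35 times as many expected counts of Slc44a1 as the count table in each group, 661, 878 and 183 against 140, 164 and 37, so its level depends on how reads were assigned.

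Within the 3 Slc44 members the makeup differed between the groups. Slc44a4 took 71.7 to 85.4% of their summed TPM in brush libraries (median 77.9%), 19 to 70.4% in EpCAM+ libraries (median 49.5%) and 0% in CD45+ libraries. For these 3 genes the brush range lay wholly above that of the EpCAM+ cells. Slc44a2 took a median of 17.8% in brush, 35% in EpCAM+ and 85.6% in CD45+ libraries, and Slc44a1 3.04, 15 and 14.4%. In CD45+ replicate 1, the shallowest library, Slc44a1 took 79.4%, while Slc44a2 led in the other CD45+ libraries. These shares were not tested and carry the higher RSEM estimate of Slc44a1. They leave out Slc44a3, a choline transporter-like gene that is not a member. Its TPM was above that of Slc44a2 in every brush library (88.5 against 57.9 in replicate 2). In EpCAM+ replicate 1 it was above that of Slc44a4 (35.4 against 18.8). The separation of the brush and EpCAM+ ranges did not hold with Slc44a3 in the sum. Slc44a4, Slc44a3, Slc44a2 and Slc44a1 stood at 163, 88.5, 57.9 and 6.34 TPM in brush replicate 2. In EpCAM+ replicate 7 they stood at 31.1, 8.84, 7.79 and 5.28 TPM, a larger share for Slc44a4.

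**Figure D3:**
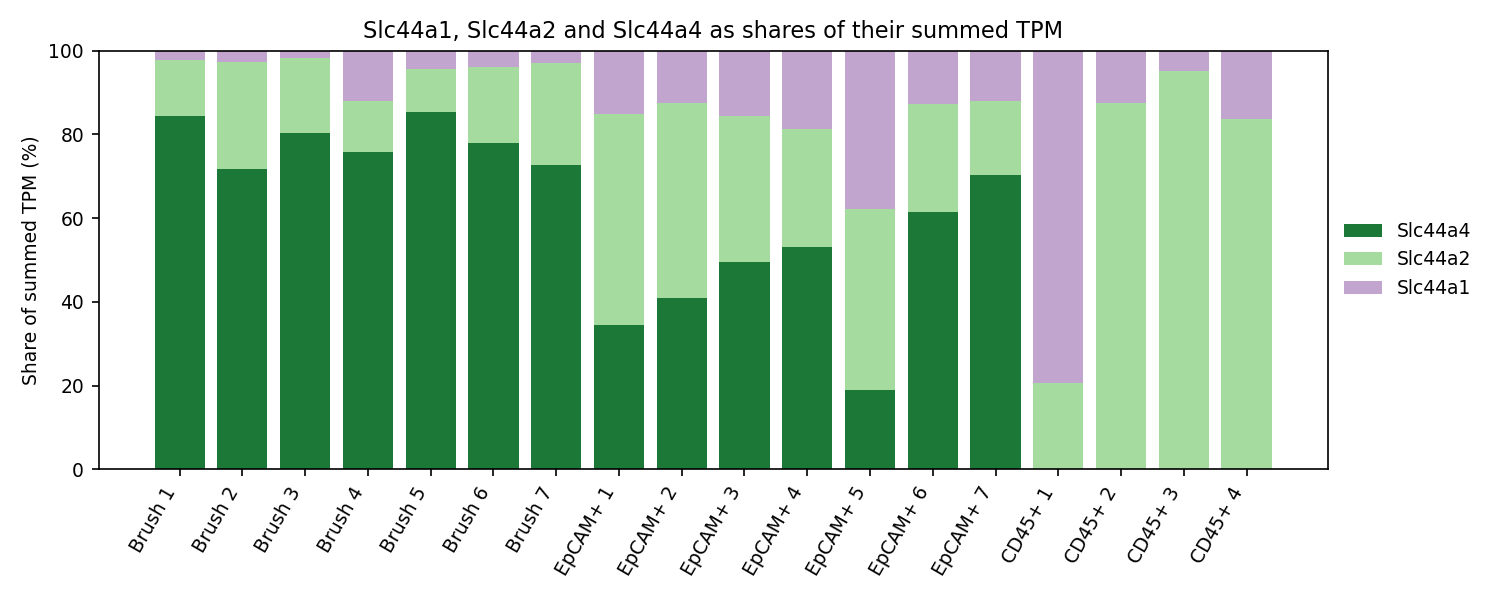
The share of Slc44a4, Slc44a2 and Slc44a1 in the summed TPM of the 3 genes, as percent, in each of the 18 libraries. Slc44a4 holds 71.7 to 85.4% of every brush bar and is missing from the CD45+ bars, where Slc44a2 leads except in replicate 1.

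The order of the members by TPM in brush cells was Slc44a4 (median 198, range 25.5 to 257), Chat (94.5, 24.1 to 140), Slc44a2 (45.8, 4.11 to 86.4), Slc44a1 (6.34, 3.97 to 10.8), Slc18a3 (1.64, 0 to 7.92), Chrm1 (0.77, 0.54 to 1.13) and Ache (0.2, 0 to 1.83). Slc5a7, Bche and Chrm3 had a median of 0. The ranges of each pair of neighbours in this order overlapped. Within each brush library Slc44a4 was above Chat, by 1.06 to 3.17 times. In EpCAM+ cells Slc44a4 (median 30.7), Slc44a2 (12.9) and Slc44a1 (6.4) led, and in CD45+ cells Slc44a2 (16.6), Chat (4.88) and Slc44a1 (2.64). In 17 of the 18 libraries 1 gene, CT010467.1, took 8.47 to 41.2% of all TPM, which lowers the TPM of every other gene in a library together and leaves their order within it as it is.

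Breakdown of acetylcholine was little represented. Ache, acetylcholinesterase, had 30 counts in brush, 25 in EpCAM+ and 13 in CD45+ cells, and the medians were 0.427, 1.11 and 0.506 CPM. Of the 30 brush counts 22 came from replicate 7, and brush replicate 4, with 2 counts, had the highest level (3.77 CPM). The ratio of scaled counts between brush and EpCAM+ cells was 1.23, with a counting interval of 0.701 to 2.19, so a difference was not detectable at this depth. The RSEM tables held 21, 8 and 11 expected counts of Ache in brush, EpCAM+ and CD45+ cells, with 17 of the brush counts in replicate 7. The ratio thus also depends on how reads were assigned.

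Bche, butyrylcholinesterase, which also splits acetylcholine, had 0 counts in the brush libraries, 38 counts in EpCAM+ cells and 10 in CD45+ cells. EpCAM+ replicates 2, 3, 4 and 6 held 3.4, 1.3, 0.269 and 3.75 CPM and the other EpCAM+ libraries 0, and the CD45+ counts all came from replicate 4. Against the level of 3 counts over the brush group, Bche was at least 12.3-fold higher in EpCAM+ cells and at least 5.66-fold higher in CD45+ cells. The ranges overlapped, because libraries of those groups also had 0 counts. Bche had too few counts for the main test, and edgeR without a filter on low counts called it lower in brush than in EpCAM+ cells (adjusted p = 0.00784) and than in CD45+ cells (adjusted p = 0.0269). Basal cell markers summed to 3760 to 6220 CPM in EpCAM+ and 58.6 to 212 CPM in brush libraries. The 6 fibroblast markers summed to 251 to 520 and 3.63 to 26.4 CPM, but Dcn alone made up 251 to 519 CPM of the EpCAM+ sums, and Pdgfra was lower there (0 to 0.309 CPM) than in brush libraries (3.08 to 15.1 CPM). The part of these cells in Bche was not tested.

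Chrm3, the M3 muscarinic receptor that drives smooth muscle contraction and gland secretion, was the member lower in brush than in EpCAM+ cells. In EpCAM+ libraries it ranged from 0.539 to 6.63 CPM with a median of 2.55. Of the brush libraries 6 had 0 counts and replicate 1 had 6 counts (1.09 CPM), and CD45+ replicates 1 to 4 held 0, 0.249, 0.219 and 0.762 CPM. The EpCAM+ and brush ranges overlapped only through brush replicate 1.

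The ratio of scaled Chrm3 counts was 12 in favour of EpCAM+ over brush cells (95% exact counting interval 5.26 to 33.7), and the fitted log2 fold change of brush minus EpCAM+ was -3.65 ± 0.85 (SE, adjusted p = 0.00135, edgeR's quasi-likelihood test). Chrm3 fell under the filter on low counts, and was not tested, when any of EpCAM+ replicates 1, 2, 6 and 7 was left out. With 74 counts in EpCAM+, 6 in brush and 6 in CD45+ cells, it passed that filter through the group where it is high. A call in the other direction was therefore hardly possible, and the p-values of Chrm3 do not allow for this selection. Without brush replicate 1 the value was -6.62, and brush minus CD45+ moved from -0.80 ± 1.12 to -3.72 (adjusted p = 0.0228). EpCAM+ cells were also higher than CD45+ cells, by 2.85 ± 1.02 (SE, adjusted p = 0.029, edgeR's quasi-likelihood test). This second call was lost with limma voom (1.94, adjusted p = 0.0579), without a filter on low counts (2.86, adjusted p = 0.0529) and without CD45+ replicate 2 (2.68, adjusted p = 0.0938) or replicate 3 (2.58, adjusted p = 0.108), and the value was 3.52 without CD45+ replicate 4. Smooth muscle markers summed to at most 7.11 CPM in any library, with the same order of size in brush (0 to 6.34) and EpCAM+ libraries (1.3 to 5.66). The part of smooth muscle in the Chrm3 level was not tested.

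Chrm1, the M1 muscarinic receptor, overlapped between all groups in the count table. The lowest, median and highest levels were 2.56, 5.47 and 7.54 CPM in brush cells and 2.16, 4.61 and 7.01 CPM in EpCAM+ cells. CD45+ replicates 1 to 4 held 2.87, 5.48, 5.91 and 4.57 CPM. The log2 fold changes of 0.14 ± 0.37 for brush minus EpCAM+, -0.0032 ± 0.39 for brush minus CD45+ and -0.15 ± 0.44 (SE) for EpCAM+ minus CD45+ did not pass the test.

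The RSEM tables gave another picture of Chrm1. They held 86 expected counts in brush, 29 in EpCAM+ and 0 in CD45+ cells, against 142, 145 and 95 in the count table. All 7 brush libraries had a TPM above 0 (0.54 to 1.13), as had 4 of 7 EpCAM+ libraries (highest 1.27 in replicate 6) and none of the 4 CD45+ libraries. On these expected counts, brush cells were higher than CD45+ cells by 6.91 ± 1.59 (SE, adjusted p = 0.00134, edgeR's quasi-likelihood test), EpCAM+ cells were higher than CD45+ cells by 5.06 ± 1.60 (adjusted p = 0.0161), and brush minus EpCAM+ was 1.85 (adjusted p = 0.0653). With 0 expected counts in CD45+ cells, Chrm1 passed the filter on low counts through the other groups. A call of lower against CD45+ cells was hardly possible, and these p-values do not allow for this selection. A fold against 0 counts has no set size, so 6.91 and 5.06 give a direction only. A small RNA gene, Gm22820, overlaps Chrm1 on the other strand and is listed at 0 in the RSEM tables of all 18 libraries. Whether the counting used strand is not given in the sources used here. Which of the tables is closer to the level of Chrm1 was not tested.

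**Figure D4:**
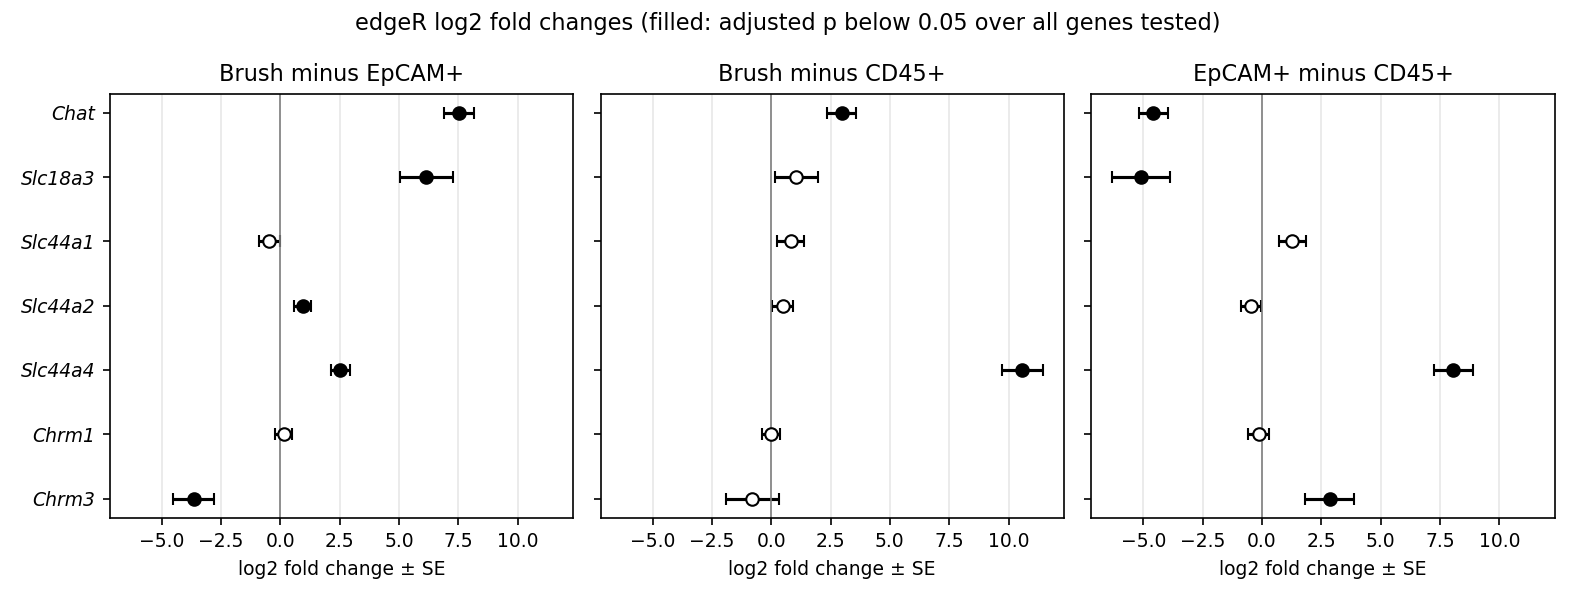
Log2 fold changes with their standard errors for the 7 tested members in the 3 comparisons, from edgeR on the count table, with filled points where the adjusted p over all genes was below 0.05. Chat and Slc44a4 are filled in all 3 panels, Slc18a3 and Chrm3 in 2, Slc44a2 in 1, and Slc44a1 and Chrm1 in none.

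Receptors outside the members were hardly counted. Of 16 nicotinic receptor subunits, the ligand-gated channels for acetylcholine, 1 could be tested: Chrnb1, at 2.55, 3.65 and 2.46 CPM in brush, EpCAM+ and CD45+ cells, did not pass in any comparison. Chrna10 had 59 counts in brush cells, 8 in EpCAM+ and 0 in CD45+ cells, but brush replicate 7 held 5.83 CPM, and the brush mean was 1.48 CPM with and 0.759 CPM without that library. Chrna2 had 36 counts in CD45+ cells against 2 in brush and 0 in EpCAM+ cells. Both were named after their values were seen. None of Chrm2, Chrm4 and Chrm5 could be tested.

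Proteins that bear on nicotinic receptors differed both ways. The Ly6 family holds small proteins that bind nicotinic receptors. Of its 8 listed genes 5 were tested, and 4 were lower in brush cells, beside 22% of all genes, with Ly6g6e at 14.8 and 16.9 CPM not passing. Slurp1, a secreted family member, had 2 counts in brush and 244 in EpCAM+ cells (log2 fold change -6.43 ± 0.79), Lypd6b averaged 2.49 against 77 CPM (-4.72 ± 0.53), Lypd6 0.121 against 5.7 CPM (-4.91 ± 0.72) and Lynx1 7.3 against 29.5 CPM (-2.15 ± 0.37). Without brush replicate 3 the value of Slurp1 was -7.03, without EpCAM+ replicate 5 it was -5.85, and without brush replicate 1 that of Lypd6 was -6.41. Slurp1 and Lypd6 had 2 and 5 counts in brush and 2 and 1 in CD45+ cells. They passed the filter on low counts through EpCAM+ cells, where they are high, so a call other than lower was hardly possible. The count of 4 is therefore no support beside the share of all genes. The receptor chaperones Ric3 (17 against 3.55 CPM, 2.31 ± 0.56) and Tmem35a, also called NACHO (24.9 against 9.37 CPM, 1.44 ± 0.44), were both higher in brush cells, and higher than in CD45+ cells (3.59 ± 0.79 and 4.91 ± 0.74, the latter 5.90 without CD45+ replicate 2).

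Choline handling beyond the members was also unlike between the groups. Slc44a3, another choline transporter-like gene, averaged 122 ± 41.4 CPM (SD) in the brush libraries, 33.7 ± 13.6 in EpCAM+ and 1.15 in CD45+ libraries (0.705 without CD45+ replicate 2). Its log2 fold changes were 1.87 ± 0.36 (SE, adjusted p = 0.00022, edgeR's quasi-likelihood test) against EpCAM+ and 6.33 ± 0.62 against CD45+ cells, the same directions as for Slc44a4. Slc22a5, the carnitine transporter, was higher in brush cells in both comparisons (1.28 ± 0.41 and 1.98 ± 0.53). Chdh, choline dehydrogenase, which starts the oxidation of choline to betaine in mitochondria, had the largest rise against EpCAM+ cells among the genes tested on these wider lists. Its mean was 151 ± 33.3 CPM (SD) in the brush libraries, 2.51 ± 1.21 in EpCAM+ and 1.87 ± 0.76 in CD45+ libraries, without overlap of brush with either group (5.90 ± 0.34 and 6.56 ± 0.49).

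Genes of phosphatidylcholine metabolism, the main store of choline, included genes called in either direction. Of 9 tested, 3 were higher and 3 lower in brush than in EpCAM+ cells, beside 18.3% and 22% of all genes. The higher genes were Pnpla6, a phospholipase that releases glycerophosphocholine (170 against 16.1 CPM, 3.40 ± 0.30), Gpcpd1, which splits glycerophosphocholine to choline (102 against 15.9 CPM, 2.67 ± 0.28), and Pcyt1b, which activates phosphocholine in the synthetic route (20.8 against 6.31 CPM, 1.75 ± 0.32). The lower genes were Chka, choline kinase alpha (37.1 against 116 CPM, -1.64 ± 0.28), and the phosphotransferases Chpt1 (7.79 against 18.9 CPM, -1.29 ± 0.48) and Cept1 (43.4 against 109 CPM, -1.29 ± 0.47). Chpt1 (without any of brush replicates 2, 3, 5 and 7 or EpCAM+ replicates 3, 4, 6 and 7, adjusted p from 0.0523 to 0.0719) and Cept1 (with limma voom, or without any of brush replicates 3, 5 and 7 or EpCAM+ replicates 2, 3 and 6, adjusted p from 0.0503 to 0.066) lost the call. Against CD45+ cells Pnpla6 (3.56 ± 0.39) and Pcyt1b (3.80 ± 0.48) were higher in brush cells and Pcyt1a was lower (-0.92 ± 0.31), a call lost without CD45+ replicate 4 (-0.50, adjusted p = 0.23) and with RSEM expected counts (-0.69, adjusted p = 0.0861), while Gpcpd1, at 130 CPM in CD45+ cells, did not pass.

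The supply of acetyl-CoA, the other substrate of Chat, was represented by 8 tested genes, of which 2 were higher in brush than in EpCAM+ cells, near the 18.3% of all genes. Acly, ATP citrate lyase, which makes cytosolic acetyl-CoA from citrate, averaged 506 ± 232 CPM (SD) in brush, 59.8 ± 40 CPM in EpCAM+ and 85.5 ± 62.7 CPM in CD45+ cells. Its ranges did not overlap (215 to 901 CPM in brush cells, at most 118 and 169 CPM in the others), and the log2 fold changes were 3.08 ± 0.48 and 2.53 ± 0.59. Acss1, a mitochondrial acetyl-CoA synthetase, was higher than in EpCAM+ cells (1.50 ± 0.49). The carnitine acetyltransferase Crat was lower than in CD45+ cells (-1.18 ± 0.46), a call lost with DESeq2 (adjusted p = 0.0522) and limma voom (0.0635) and without any of brush replicates 1, 4, 5 and 6, EpCAM+ replicate 4 or CD45+ replicates 2 and 4 (0.0508 to 0.197). Colq, the collagen tail that anchors acetylcholinesterase, was called higher than in EpCAM+ cells on 37 against 2 counts (3.36 ± 1.18), and not with DESeq2 (3.37, adjusted p = 0.054) or limma voom (1.42, adjusted p = 0.22). The brush counts of Colq came from 2 of 7 libraries, and the brush mean of 0.736 CPM was 0.363 CPM without replicate 7.

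Over all wider lists, 62 of 64 genes were in the table and 32 could be tested. Against EpCAM+ cells 11 were higher and 7 lower in brush cells, and against CD45+ cells 9 were higher and 2 lower. Over all genes 18.3% were higher and 22% lower in the first comparison and 23.4% and 22.4% in the second, so the 7 lower and 9 higher genes are near the background. In EpCAM+ against CD45+ cells 11 were higher and 4 lower, beside 22.5% and 18.1% of all genes. Their median log2 fold changes of 0.07, 0.76 and 0.67 stand beside -0.06, 0.05 and 0.08 over all genes.

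**Figure D5:**
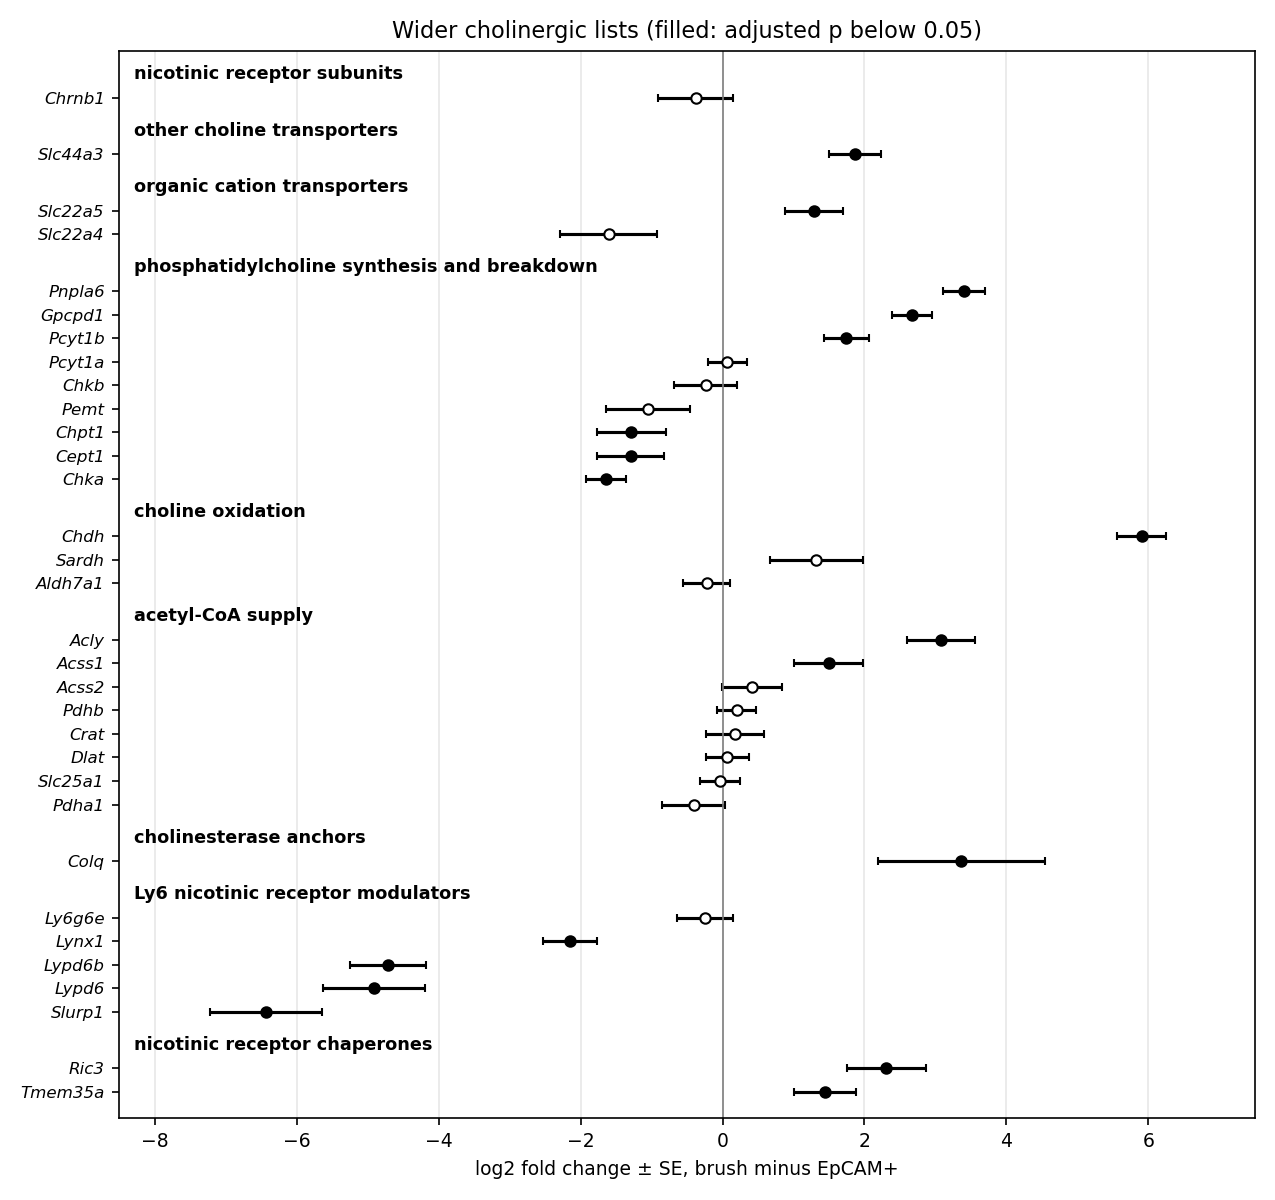
Log2 fold change with standard error, brush minus EpCAM+, of each tested gene of the wider lists, grouped by list, with filled points at an adjusted p below 0.05. Chdh, Pnpla6, Colq and Acly are the highest, and 4 of the 5 tested Ly6 genes are the lowest.

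The genes whose levels most resembled those of 3 members over the 18 libraries were found by the Pearson correlation of log2 CPM, as a description without a test, since the libraries share groups and depth. For Chat these were Tnfrsf8 (0.963), Ano6 (0.961) and Pygl (0.96). Tnfrsf8, the receptor CD30, had means of 16.2, 0 and 2.02 CPM in brush, EpCAM+ and CD45+ libraries, and 0.861 CPM in the last without CD45+ replicate 2. Pygl, the liver form of glycogen phosphorylase, averaged 324, 10.2 and 85.2 CPM. All 3 followed the order of Chat, with CD45+ between brush and EpCAM+ cells, which their choice by correlation makes likely. For Slc44a4 they were Slc27a2 (0.982), Myo6 (0.982) and Cyp2j6 (0.981), each highest in brush and lowest in CD45+ cells, and for Slc44a2 Slc35c1 (0.952), Csnk1d (0.952) and Glyr1 (0.948), all present in each of the groups. The patterns of these genes likewise go with their choice by correlation.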

How the data were processed

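RNA of 18 libraries was compared. The authors deposited a table of whole-number read counts per gene symbol, unnormalized, and per the file headers each library also has an RSEM table of expected counts and TPM. The submitters' processing notes list mm10 as the build and name DESeq2, featureCounts, RSEM 1.2.21, STAR 2.4.2a and Picard. How strand was handled and which annotation served for counting is not given in the sources used here. All 18 libraries entered 1 fit of edgeR 4.0.16 (R 4.3.3; TMM, filterByExpr by group, quasi-likelihood F test, group as the only term), which tested 13418 genes and removed 12909. A gene counted as called when its p, adjusted by Benjamini-Hochberg over these genes, was below 0.05. Standard errors are the absolute log2 fold change over the square root of F, and levels are CPM, mean ± SD over libraries. Calculations were tested on simulated data. Intervals and count floors (3 counts over a group, or in 1 library where stated) cover counting error only. Alternatives were DESeq2 1.42.0, limma 3.58.1 (voom), DESeq2 size factors in edgeR, other filters, fits of 2 groups and rounded RSEM expected counts. Further ones were 5 ribosomal RNA genes left out (12.2 to 63.5% of the counts of a library), a replicate block, and libraries left out. Named were all members, wider-list genes called in a brush comparison, neighbours of Chat within 250 kb and the 3 genes most like Chat, Slc44a2 and Slc44a4. Ache, also on that list, was not tested. The members and lists were chosen with earlier results of these data known. A deposited table of normalized values was not used here, and 1 listed neuronal marker is not reported here.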

Additional observations from a re-analysis of the deposited data

Results flagged for a closer look

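Within each group, the highest or lowest library of a gene was compared with its nearest neighbour. In 7 of 28 sets of a gene and a group the gap exceeded the 95% critical value of Dixon's test, where chance gives about 1 in 20. In 5 of the 7 every other library of the group had 0 counts, so the gap equals the range by construction and that rate does not apply to them. Slc44a4 was low in brush replicate 4, the shallowest brush library, at 94.3 CPM against at least 274 CPM in the others. Slc44a1 was high in EpCAM+ replicate 5, at 12.6 CPM. Chrm3 was 1.09 CPM in brush replicate 1 and 0 in the other brush libraries, and Bche was 2.54 CPM in CD45+ replicate 4 and 0 in the other CD45+ libraries. The remaining 3 sets rest on 1 count each: Slc18a3 in EpCAM+ replicate 3 (0.186 CPM), Slc5a7 in brush replicate 6 (0.213 CPM) and Slc5a7 in CD45+ replicate 3 (0.11 CPM).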

How the results depend on the processing

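The directions and calls of Chat, Slc18a3 and Slc44a4 in the 3 comparisons held in each alternative that could fit them. Members called lower in brush than in EpCAM+ cells (1, Chrm3) numbered 2 without a filter, with Bche, and 0 with at least 10 CPM in 4 libraries, with 2 groups only and with RSEM expected counts, where Chrm3 was not tested, and 0 to 1 when each library was left out. In brush against CD45+ cells they numbered 1 without a filter and 0 to 1 on leaving out libraries. EpCAM+ minus CD45+ gave 1 member higher with limma voom, without a filter, with at least 10 CPM and with the replicate block, and 1 to 2 on leaving out libraries, and 1 member lower with at least 10 CPM and with 2 groups only. Wider-list genes lower in brush than in CD45+ cells numbered 1 with DESeq2, 5 without a filter, 0 with the replicate block, 4 without the 3 libraries that stood apart and 0 to 3 on leaving out 1 library. Those lower in EpCAM+ than in CD45+ cells numbered 7 without a filter, 2 with 2 groups only, 2 with the replicate block and 2 to 4 on leaving out libraries. Chrm1, near 0, changed sign in brush minus CD45+ with DESeq2 size factors (0.0638), DESeq2 (0.0115), no filter (0.0162), RSEM (6.91), ribosomal genes left out (0.0115), the replicate block (0.0531) and on leaving out libraries (-0.0975 to 0.143), and in EpCAM+ minus CD45+ with RSEM (5.06) and on leaving out libraries (-0.266 to 0.0245). The cause of these changes was not tested. Libraries with the same number showed no clear pairing. The correlation of their deviations was above 0.1 in 5 of 15 pairs, with a median of 0.065 beside 0.028 in other pairs. Of 18 libraries 4 correlated best with their own number. These weak correlations cannot show whether libraries with the same number came from the same mice. With the replicate block Chrm3 was 2.07 in EpCAM+ minus CD45+ (adjusted p = 0.143), Cept1 -1.18 (0.066) and Colq 2.24 (0.196) in brush minus EpCAM+, and Pcyt1a -0.89 (0.0904) and Crat -1.02 (0.122) in brush minus CD45+, none of them called by edgeR, and the block moved the counts over all genes by less than 1.5 times. Depth limits Slc5a7, Ache, Bche, Slc18a3 and Chrm3, which have few counts.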
